A study of Mus musculus with 4 samples.

Results

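Threonine dehydrogenase (Tdh), glycine C-acetyltransferase (Gcat) and 3 genes of the glycine cleavage system (Gldc, Amt and Gcsh) were followed in mouse embryonic stem cells (ESCs) given lactate. They were found by gene symbol among the 55335 genes of the expression tables, where the 5 symbols occupied 6 rows because Gcat was listed under 2 Ensembl identifiers. All 6 rows passed the filter on low counts that left 18661 genes for testing. The cells were AB2.2, 1 mouse ESC line, grown on mouse embryonic fibroblast (MEF) feeders with serum, leukemia inhibitory factor, CHIR99021 and PD0325901. RNA-seq covered 2 control libraries and 2 libraries of cells kept with 50 mM lactate for 24 h, all grown in the same medium on feeders. No label says whether the libraries of a group came from separate cultures, so p-values measure the spread between these libraries, which may be technical. The feeders were not stated to have been removed, and in such bulk RNA fewer cells of a type and less RNA per cell cannot be told apart.

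In the mouse, mitochondrial Tdh oxidises threonine, and Gcat splits the product into glycine and acetyl-CoA. The glycine cleavage system then breaks glycine down to carbon dioxide, ammonia and a one-carbon unit carried by tetrahydrofolate. It has a P protein (Gldc), which takes the carboxyl group off glycine, a T protein (Amt), which passes the methylene group to folate, a lipoylated H protein (Gcsh), which carries the intermediate between them, and an L protein (Dld), which reoxidises the lipoyl arm. Mouse ESCs are known for high Tdh expression and for their need of threonine, which feeds the one-carbon pool and S-adenosylmethionine.

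None of the 5 genes passed the study's threshold of a more than 2-fold change with an adjusted p-value under 0.05. Across all genes tested, 0.900% passed it with edgeR's quasi-likelihood test. Gldc was the 1 member with more reads in the lactate libraries, by 1.34-fold, and Tdh, Gcat, Amt and Gcsh had log2 fold changes below 0. Around them, 4 carriers of glycine, threonine or other neutral amino acids and 2 enzymes of mitochondrial folate metabolism were upregulated. Gene counts per library numbered 18067562 to 19077885. Mitochondrial transcripts took 5.48% and 5.72% of the counts in the libraries numbered 1 of control and lactate, and 2.43% and 2.82% in those numbered 2.

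The promoters of a member with more reads and of one with fewer reads in lactate are shown for their motifs. RefSeq's promoter table (GRCm38.p6) held 4 of the 5 members, with 250 bases before and 50 after the start of the gene, and Tdh was not matched. Searched on both strands were TGATGNAA, the core of the element bound by ATF4 with C/EBP proteins, CACGTG, the E-box, and GGGCGG, the GC box. In the sequences below, capitals mark a match.

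Gldc (chr19:30175392-30175691, minus strand): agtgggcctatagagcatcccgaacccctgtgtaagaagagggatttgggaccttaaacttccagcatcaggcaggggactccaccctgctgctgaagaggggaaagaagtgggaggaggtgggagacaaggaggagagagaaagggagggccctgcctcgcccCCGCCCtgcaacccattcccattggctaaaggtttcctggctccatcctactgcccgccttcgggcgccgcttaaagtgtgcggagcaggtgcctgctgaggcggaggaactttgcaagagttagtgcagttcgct

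Gcat (chr15:79030624-79030923, plus strand): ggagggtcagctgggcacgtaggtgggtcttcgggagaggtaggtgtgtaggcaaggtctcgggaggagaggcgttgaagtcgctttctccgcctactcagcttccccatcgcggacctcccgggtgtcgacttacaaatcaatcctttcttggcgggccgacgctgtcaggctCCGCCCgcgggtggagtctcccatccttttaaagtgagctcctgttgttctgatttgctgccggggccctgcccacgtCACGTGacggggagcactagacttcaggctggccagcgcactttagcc

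Gldc had a GC box that began 86 bases before the start site. Gcat had one 76 bases before it and an E-box that began 2 bases after it. The GC box was in all 4 member promoters and in 35.7% of all 32851 promoters in the table. The E-box was in the promoter of Gcat alone among the 4, and in 7.15% of all promoters. TGATGNAA was in 0 of the 4 and in 3.97% of all promoters, which says only that these letters were not in this window.

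The level of each gene per transcript length was read from the TPM, a unit scaled for transcript length, that the authors computed with RSEM. Tdh was the most abundant member in every library. It reached 300.1 and 426.9 TPM in the first and second control library, against 280.9 and 340.5 TPM in their lactate counterparts. With a control mean of 363.5 ± 89.6 TPM (SD, n = 2), Tdh lay above 97.6% of the 14198 genes with a TPM above 1. RSEM gave 0 reads to Gm17232, an antisense gene within Tdh, and whether the TPM of Tdh takes in its reads was not tested. Gcsh followed with 137.7 ± 13.7 TPM and Amt with 114.6 ± 10.5 TPM in control cells, above 92.8% and 91.1% of those genes. Gcat, with its 2 rows added, had 63.5 ± 10.1 TPM and Gldc 57.7 ± 6.43 TPM.

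In the order of control levels, the ranges of Gcat and Gldc overlapped between libraries. Within each control library Gcat was above Gldc, at 56.3 against 53.2 TPM and 70.6 against 62.3 TPM, a difference that was not tested. Gcsh exceeded Amt in every library, by 1.19-fold and 1.21-fold in control cells and by 1.41-fold and 1.26-fold in lactate. Under lactate the last places changed. Gldc reached 79.8 and 83.1 TPM in the lactate libraries, above both Gcat values of 47.2 and 63.0 TPM. Tdh remained the highest member there, at 310.7 ± 42.1 TPM.

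**Figure D1:**
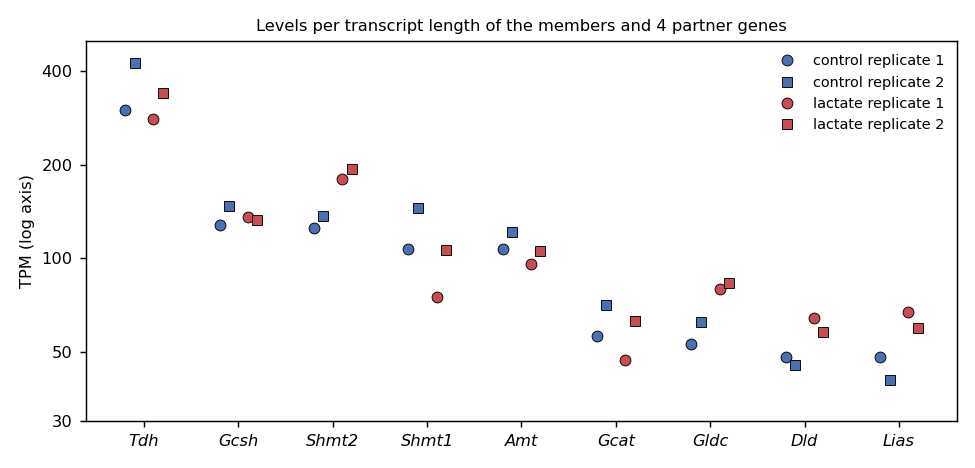
TPM (log axis) of the 5 members and of Shmt2, Shmt1, Dld and Lias in each library, blue for control and red for lactate, circles for replicate 1 and squares for replicate 2. Tdh lies highest in all 4 libraries, from 280.9 to 426.9 TPM, and the red points of Gldc, at 79.8 and 83.1 TPM, lie above its blue points at 53.2 and 62.3 TPM.

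Changes with lactate were tested on the raw counts. Levels below are CPM, read counts scaled to a common library total with TMM factors and not to length. Tdh, the first enzyme of the pathway (ENSMUSG00000021953.14, chromosome 14, 63492347 to 63509092, minus strand, GRCm38), drew 5040 and 7041 reads from control cells and 4701 and 5767 from lactate cells. This was 291.4 and 371.1 CPM against 252.9 and 292.3 CPM. The second lactate library lay just above the first control library, so the groups overlapped. The log2 fold change was −0.28 (standard error 0.17, 95% interval −0.70 to 0.14), with an adjusted p-value of 0.378 from edgeR. The interval reaches from 0.617 to 1.10 times the control level.

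Gcat, the second enzyme (chromosome 15, plus strand), was split over 2 overlapping protein-coding genes. The shorter one (ENSMUSG00000006378.15) spans 79030874 to 79038353 and the longer one (ENSMUSG00000116378.1) 79030901 to 79042531. The shorter gene had 523 and 702 reads in control and 396 and 572 in lactate. The longer gene had 503 and 664 reads in control and 378 and 525 in lactate. Both rows were lower in both lactate libraries than in both control libraries, but since they share exons they are not separate measurements. Added together, they gave 59.3 and 72.0 CPM in control and 41.6 and 55.6 CPM in lactate. The log2 fold change of the sum was −0.43 (standard error 0.19, 95% interval −0.89 to 0.022), with an adjusted p-value of 0.236 (edgeR). Tested apart, the shorter gene had a log2 fold change of −0.42 and the longer gene of −0.45, with adjusted p-values of 0.280 and 0.232 (edgeR).

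Gldc, the P protein that starts glycine cleavage (ENSMUSG00000024827.10, chromosome 19, 30098447 to 30175429, minus strand), had 2407 and 2982 reads in control and 3584 and 4012 in lactate. In CPM this was 139.2 and 157.2 against 192.8 and 203.4, and the groups did not overlap. The mean went from 148.2 ± 12.7 to 198.1 ± 7.47 CPM (SD, n = 2). The log2 fold change was 0.42 (standard error 0.14, 95% interval 0.089 to 0.75). Gldc was the 1 member row of 6 with an unadjusted p-value under 0.05 (0.0206, edgeR), as were 23.1% of all genes tested. Its adjusted p-value was 0.145 (edgeR). The interval lies below the 2-fold threshold, from 1.06-fold to 1.68-fold.

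Amt, the T protein (ENSMUSG00000032607.12, chromosome 9, 108296853 to 108302302, plus strand), had 121.3 and 143.0 CPM in control and 104.1 and 120.3 CPM in lactate. The highest lactate value was just under the lowest control value, so the groups did not overlap. Its log2 fold change was −0.24 (standard error 0.15, 95% interval −0.60 to 0.13), with an adjusted p-value of 0.402 (edgeR). Gcsh, the H protein (ENSMUSG00000034424.5, chromosome 8, 116981810 to 116993537, minus strand), had 108.8 and 122.3 CPM in control and 106.7 and 108.2 CPM in lactate. Its libraries did not overlap either, by less than 1 CPM. The log2 fold change of −0.10 (standard error 0.13, 95% interval −0.42 to 0.21) was smaller than its standard error, and the adjusted p-value was 0.690 (edgeR).

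**Figure D2:**
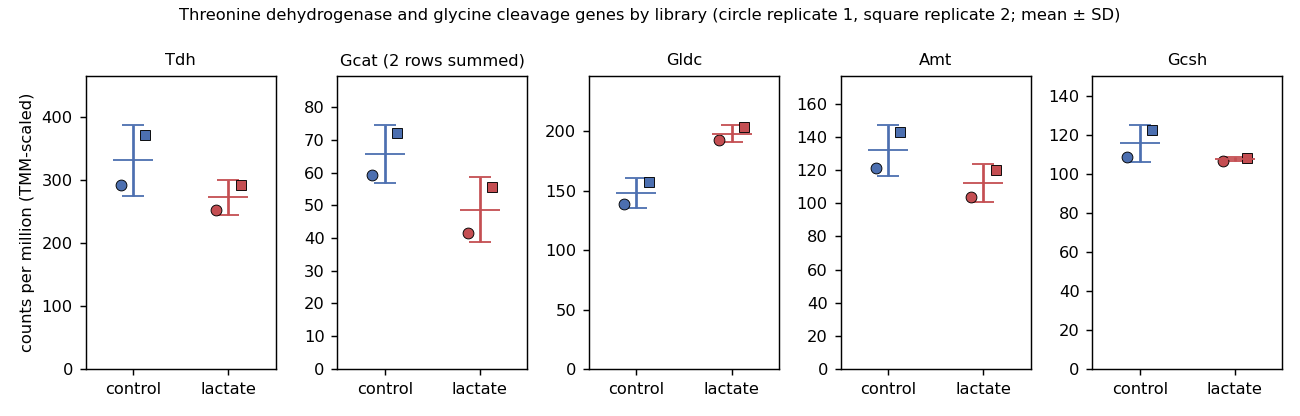
CPM after TMM scaling of each member, by library, with circles for replicate 1, squares for replicate 2 and bars for the mean ± SD of 2 libraries, each axis starting at 0. Gldc, at 192.8 and 203.4 CPM in lactate, is the 1 gene whose lactate libraries lie above both control libraries.

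Among all genes tested, 27.0% had both lactate libraries above both control libraries, as Gldc had, and 25.9% had both below, as did Gcat, Amt and Gcsh. A lack of overlap between 2 and 2 libraries was thus common in these data. It also depended on the scale, since on TPM the groups of Gcat and of Gcsh overlapped, while those of Gldc and Amt did not. All 6 member rows had more CPM in the library numbered 2 than in that numbered 1, in both groups. Among all genes tested, 38.9% did so and 36.1% did the reverse. The part of this order, or of the mitochondrial share that differed between the numbers, in the members' values was not tested.

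The balance of the glycine cleavage genes was also compared within libraries on TPM. The ratio of Amt to Gldc was 2.02 and 1.96 in control and 1.20 and 1.27 in lactate. The ratio of Gcsh to Gldc was 2.41 and 2.37 in control and 1.70 and 1.60 in lactate. For both pairs the difference between groups was larger than the spread within them. The ratio of Dld to Gldc, at 0.905 and 0.729 in control and 0.804 and 0.696 in lactate, overlapped between the groups. Tdh over Gcat was 5.33 and 6.05 in control and 5.95 and 5.41 in lactate, again overlapping. With 2 libraries a group no permutation test of such a ratio can reach a p-value of 0.05, and none was made.

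Tdh and Gcat overlap other annotated genes, and the deposited tables gave these genes different shares of the reads. The study's methods name the GeneCounts option of STAR, which leaves out reads that overlap more than 1 gene. The 2 Gcat rows, which share exons, nevertheless held near-equal counts, and how the count table treated shared reads was not settled here. The summed rows therefore rest on the assumption that each read was counted once. Of the 2384 exonic bases of the shorter Gcat gene, 1132 (47.5%) also belong to exons of the longer one. The longer gene took between 47.9% and 49.0% of the Gcat reads in the count table in all 4 libraries. In the RSEM tables it took 45.4% and 39.4% in control and 46.7% and 11.8% in lactate. The drop in lactate replicate 2 left the shorter gene with 845 expected counts in that library, the highest of the 4. The change of each row alone therefore depended on the table. On RSEM expected counts the log2 fold change was −0.066 for the shorter gene and −1.06 for the longer one, with adjusted p-values of 0.941 and 0.239 (edgeR). On log2(FPKM + 1) it was 0.074 for the shorter gene, above 0, and −1.07 for the longer one. The summed RSEM rows gave −0.40 and the summed count rows −0.43.

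For Tdh the neighbour is Gm17232, an antisense gene on the opposite strand (chromosome 14, 63493699 to 63499872) that lies within Tdh. Its exons cover 66 coding bases of Tdh, which are 14.6% of its own 453 exonic bases and 2.52% of the 2615 of Tdh. It had 1267 and 2281 reads in control and 1117 and 1733 in lactate in the count table, and was listed at 0 expected counts in all 4 RSEM tables. Whether counting used strand is not stated, so reads on the shared bases cannot be told apart between Tdh and Gm17232 in the counts. The log2 difference of Gm17232 was −0.39 ± 0.28 (SE, edgeR adjusted p = 0.460), with overlapping groups. With its reads added to Tdh, the log2 fold change of Tdh was −0.30 (95% interval −0.78 to 0.17). RSEM expected counts gave −0.29.

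Counts divided by RSEM expected counts were 1.14 to 1.16 for Gldc, 1.15 for Amt and 1.14 to 1.16 for Gcsh. The median over 9921 genes with at least 100 reads in both tables was 1.16 to 1.18 across libraries. Tdh alone was at 0.900 to 0.976, and at 1.18 to 1.22 with Gm17232. The Gcat rows together were at 1.14 to 1.19, near the other members, and the longer gene alone reached 4.62.

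**Figure D3:**
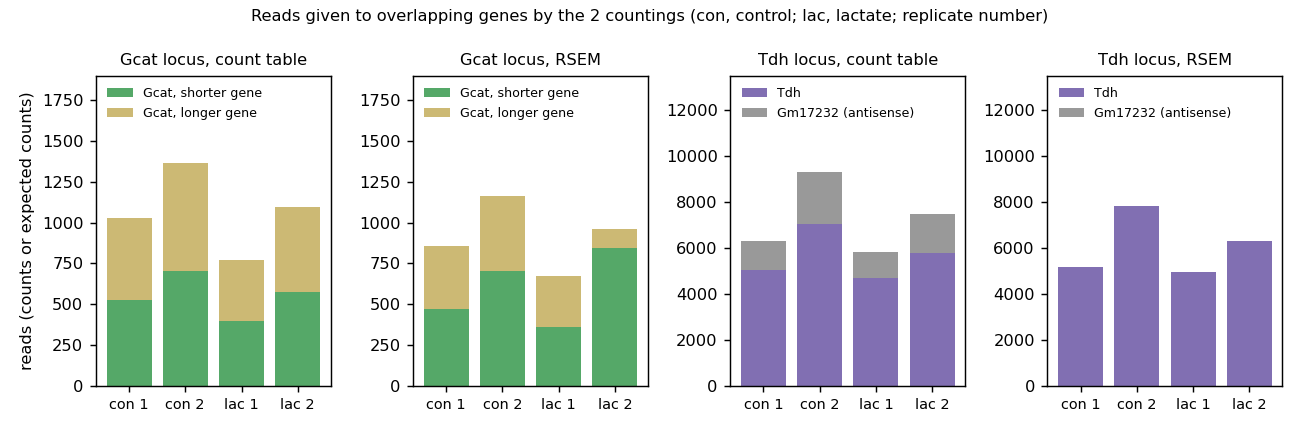
Reads in each library (con, control; lac, lactate) on the 2 Gcat genes and on Tdh with Gm17232, as stacked bars from 0, in the count table and in the RSEM tables. The 2 Gcat rows are near equal in the counts, while RSEM leaves 11.8% on the longer gene in lactate replicate 2, and the grey bars of Gm17232 are absent from RSEM.

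The other genes of the pathway were taken from lists of its partners. The list of the L protein and of lipoyl synthesis had 11 genes, all tested, of which 0 were called. An unadjusted p-value under 0.05 (edgeR) was found for 1, beside 23.1% of all genes tested. The list's median log2 fold change was 0.026, beside 0.010 for all genes tested. Dld, the L protein shared with the pyruvate and 2-oxoglutarate dehydrogenases, had 79.0 and 72.0 CPM in control and 95.1 and 89.3 CPM in lactate. The groups did not overlap, and the log2 difference was 0.29 ± 0.13 (SE, edgeR adjusted p = 0.251). Lias, the lipoic acid synthase, had 38.3 and 41.9 CPM in control and 50.8 and 59.3 CPM in lactate, without overlap, and a log2 fold change of 0.46 (adjusted p-value 0.141, edgeR). Mecr, of mitochondrial fatty acid synthesis, and Glrx5, of iron-sulfur cluster assembly, had log2 fold changes of 0.31 and −0.32. The value of Glrx5 rested on lactate replicate 1. Without it the value was 0.13, and without lactate replicate 2 it was −1.04 and passed the threshold.

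The other lipoylated proteins, which use the same cofactor as Gcsh, had 4 genes tested and 0 called or under an unadjusted p-value of 0.05 (edgeR). Of all genes tested, 23.1% had such an unadjusted p-value. Dbt, Dlst and Dlat, acyltransferase subunits of mitochondrial dehydrogenases, had log2 fold changes of 0.35, 0.27 and 0.013, and the median of the list was 0.14.

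Among 18 other enzymes of threonine and glycine, 11 passed the filter and 0 were called. An unadjusted p-value under 0.05 (edgeR) was found for 5, of which 2 were higher and 3 lower. This held for 23.1% of all genes tested. The list's median log2 fold change was 0.30. Both serine hydroxymethyltransferases, which interconvert serine and glycine, were abundant, and they differed in direction. Mitochondrial Shmt2 had 162.1 and 174.1 CPM in control and 216.0 and 237.3 CPM in lactate. This was a log2 difference of 0.43 ± 0.13 (SE, edgeR adjusted p = 0.136). Cytosolic Shmt1 had 144.0 and 171.0 CPM in control and 108.6 and 130.4 CPM in lactate, a log2 difference of −0.40 ± 0.16 (SE, edgeR adjusted p = 0.208). Neither gene overlapped between the groups, and neither passed the threshold. The ratio of Tdh to Shmt2 on TPM was 2.39 and 3.11 in control and 1.56 and 1.76 in lactate.

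Tha1, threonine aldolase, the other enzyme that makes glycine from threonine, was little expressed, with 1.17 and 1.57 TPM in control and 1.12 and 2.07 TPM in lactate. Its log2 fold change was −0.32 on the counts (adjusted p-value 0.492, edgeR) and 0.099 on log2(FPKM + 1). Dmgdh, which demethylates dimethylglycine, had a log2 fold change of 0.68 (adjusted p-value 0.105, edgeR). Gnmt, glycine N-methyltransferase, had 0.54 and Alas2, an aminolevulinate synthase, 0.72, each from under 2 CPM in every library. The value of Alas2 rested on 15 and 6 control reads, and was 0.15 without control replicate 2 and 1.57 without control replicate 1. In the RSEM tables Alas2 was near 0, with 0 and 0.05 TPM in control and 0.06 and 0.05 TPM in lactate.

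The list of serine synthesis and folate enzymes had 13 genes tested, of which 2 were called, both higher, where 0.552% of all genes tested were called higher and 0.348% lower. Mthfd2, the mitochondrial enzyme that oxidises the one-carbon unit which glycine cleavage makes, had 56.3 and 66.8 CPM in control and 206.8 and 232.3 CPM in lactate. It was upregulated by 1.83 ± 0.15 on the log2 scale (SE, edgeR adjusted p = 0.0312). Aldh1l2, the mitochondrial formyltetrahydrofolate dehydrogenase, had 8.15 and 6.75 CPM in control and 22.2 and 21.8 CPM in lactate, a log2 fold change of 1.56 (edgeR adjusted p = 0.0396). Phgdh, the first enzyme of serine synthesis, had a log2 fold change of 0.62 (adjusted p-value 0.103, edgeR). At an unadjusted p-value under 0.05 (edgeR), 4 of the 13 genes were higher and 2 lower, beside 23.1% of all genes tested in either direction. The list's median was 0.12.

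The methionine cycle, which uses the one-carbon units, had 8 genes tested and 0 called. An unadjusted p-value under 0.05 (edgeR) was found for 4, of which 2 were higher and 2 lower, beside 23.1% of all genes tested. The list's median log2 fold change was 0.13. Bhmt, betaine-homocysteine methyltransferase, had 10.8 and 12.9 CPM in control and 23.8 and 27.2 CPM in lactate. Its log2 fold change of 1.11 had an edgeR adjusted p-value of 0.0520, and DESeq2 called it with an adjusted p-value of 0.00146. Mat2b, the regulatory subunit of methionine adenosyltransferase, had a log2 fold change of −0.77.

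The list of threonine and glycine carriers was where most calls fell. Of 12 genes, 11 were tested and 4 were called, all higher, and 9, all higher too, had an unadjusted p-value under 0.05 (edgeR). Of all genes tested, 0.552% were called higher and 23.1% had such an unadjusted p-value in either direction. The list's median log2 fold change was 0.70. Slc6a9, the plasma membrane glycine transporter, had 4.34 and 3.37 CPM in control and 17.5 and 18.0 CPM in lactate. On the log2 scale it rose by 2.21 ± 0.20 (SE, edgeR adjusted p = 0.0313). Slc1a4, which carries alanine, serine and threonine, had 21.5 and 18.7 CPM in control and 116.2 and 127.6 CPM in lactate, a log2 fold change of 2.60 (adjusted p-value 0.0165, edgeR). Slc7a5 and Slc38a2, carriers of large and of small neutral amino acids, had log2 fold changes of 1.16 and 1.07 (edgeR adjusted p = 0.0431 and 0.0467). Without control replicate 1, the adjusted p-values of Slc7a5 and Slc38a2 were 0.103 and 0.0972 (edgeR), and without lactate replicate 1 the log2 fold change of Slc38a2 was 0.92, under 2-fold. On the RSEM expected counts Slc7a5, Slc38a2 and Aldh1l2 had adjusted p-values of 0.0525, 0.0532 and 0.0515 (edgeR), past the threshold of 0.05.

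Of the synthetases that charge tRNA with threonine or glycine, 4 genes were tested and 0 called. An unadjusted p-value under 0.05 (edgeR) was found for 1, beside 23.1% of all genes tested. Gars, for glycine, had a log2 fold change of 0.43, and Tars and Tarsl2, for threonine, had 0.13 and −0.13. The median of the list was 0.0022.

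**Figure D4:**
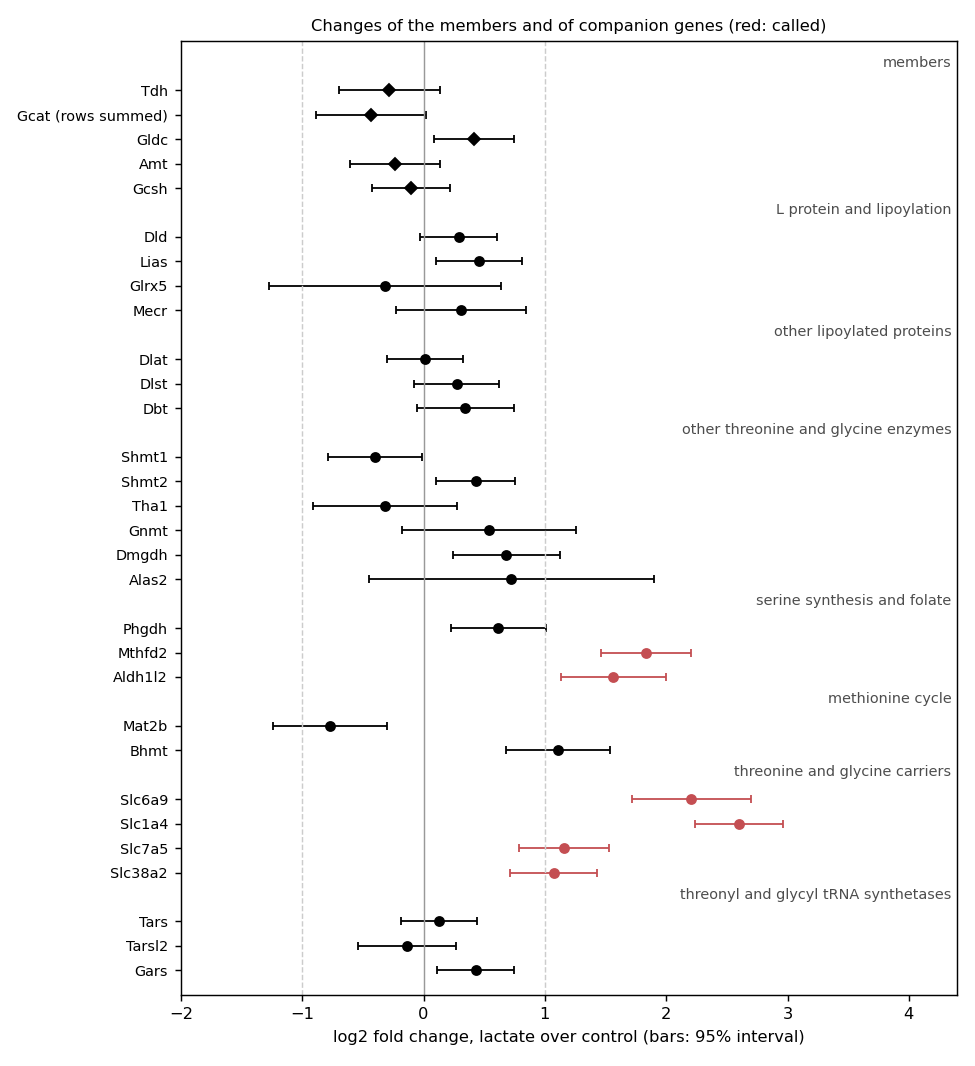
Log2 fold changes, lactate over control, of the 5 members (diamonds) and of companion genes by list (circles), with 95% intervals from edgeR and dashed lines at 2-fold. The members lie between −0.43 and 0.42, and the 6 red points, which passed the threshold, are Mthfd2, Aldh1l2, Slc6a9, Slc1a4, Slc7a5 and Slc38a2.

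The profiles most like each member were sought among 14540 named genes, by the root mean square difference of log2 CPM over the 4 libraries after centring on the control mean. Bach1, Lpcat1 and Oat were nearest to Tdh (0.011, 0.020 and 0.022), and 584 genes lay within 0.1. Focad, Rbm4 and Fam126a were nearest to Gldc, with 414 genes within 0.1. Hist3h2a, Foxo4 and Lmbr1l were nearest to Gcat (shorter gene), Zfp446, Timm8a1 and Atp13a2 to Amt, and Kif3b, Surf2 and Ttl to Gcsh. With 4 libraries, between 355 and 1048 genes lay that near to each member.

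ESC markers were expressed in every library, and their summed TPM over 8 genes was 2877 and 3168 in control and 3360 and 3350 in lactate. Of these 8, 6 were higher and 2 lower with lactate, and 0 were called. The lower ones were Pou5f1 and Esrrb, with log2 fold changes of −0.40 and −0.14. An unadjusted p-value under 0.05 (edgeR) was found for 4, all higher, beside 23.1% of all genes tested in either direction. Markers of the feeder fibroblasts were present as well. Their summed TPM over 15 genes was 404 and 528 in control and 466 and 489 in lactate, with no marker at 0. Of these 15, 6 were higher and 9 lower with lactate, and 0 were called (3 at an unadjusted p-value under 0.05, edgeR). This sum was highest in control replicate 2, as were the TPM of Tdh, Gcat, Amt and Gcsh, but singly 9 of the 15 markers were highest there and 6 in another library. Their part in the members' values was not tested. Summed TPM of 6 primitive endoderm markers was 6.34 and 4.99 in control and 9.05 and 9.85 in lactate, and that of 7 primed and early lineage markers 28.4 and 23.9 against 35.7 and 34.1. Summed TPM of 6 markers of 2-cell-like cells was 13.8 and 11.3 against 36.3 and 29.1. Of these 3 lists 4, 6 and 4 genes were tested, and 0 were called. An unadjusted p-value under 0.05 (edgeR) was found for 1, 1 and 4, all higher. The 4 tested 2-cell-like markers had log2 fold changes of 1.28 to 2.16, with adjusted p-values of 0.0516 to 0.0963 (edgeR). The study, which used DESeq2 and also qRT-PCR, reported that Zscan4 family genes were upregulated.

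The members' values were then recomputed with other normalizations, filters, tools and units. The alternatives without a replicate term numbered 20, counting the main fit judged by its adjusted p-value alone. Over these, the log2 fold change of Gldc ranged from 0.32 to 0.50. With all 4 libraries its adjusted p-values ranged from 0.126 to 0.330 (edgeR, DESeq2 or limma). The log2 fold change of Tdh ranged from −0.46 to −0.10, that of Amt from −0.37 to −0.12 and that of Gcsh from −0.20 to −0.023. None of these 4 genes changed direction or passed the threshold in any of them. The Tdh value was −0.10 without control replicate 2 and −0.46 without control replicate 1. The Gcsh value was −0.023 without control replicate 2. With 1 library left out, the shorter Gcat gene ranged from −0.66 to −0.24 and the longer one from −0.66 to −0.29. Over all these alternatives the shorter gene reached 0.074 and the longer one −1.16, and neither was called.

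**Figure D5:**
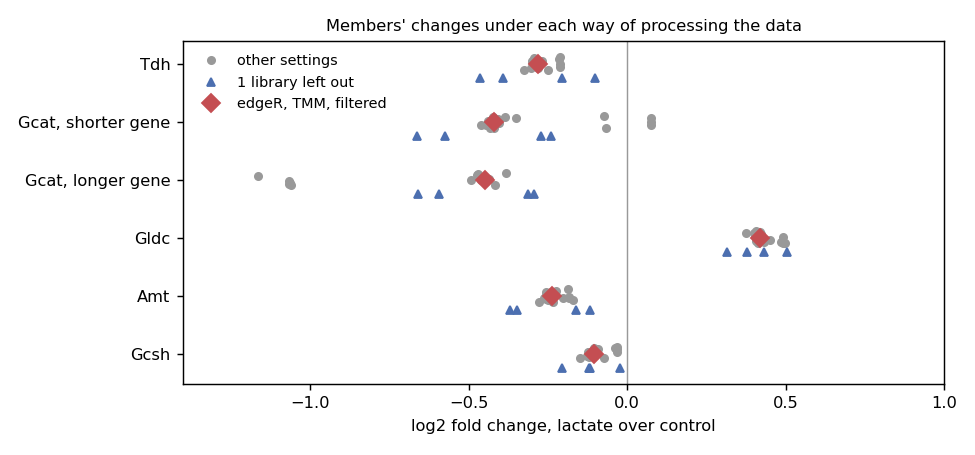
Log2 fold changes, lactate over control, of each member row under every setting, with diamonds for edgeR with TMM and the filter, triangles with 1 library left out and grey circles for the other settings. Gldc stays above 0 (lowest 0.32), Tdh, Amt and Gcsh stay below 0, and the 2 Gcat rows spread most, from 0.074 down to −1.16.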

How the data were processed

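RNA-seq was analysed in 2 control and 2 lactate libraries, grouped by the labels' treatment. According to the methods and the submitters' processing notes, the authors trimmed reads with cutadapt 1.16, mapped them to mm10 with STAR and counted exonic reads per gene (GENCODE M23). The authors deposited raw counts of 55335 genes and 1153 transposable element families without normalization. For each library the authors also deposited expected counts, TPM and FPKM per gene from RSEM, with RSEM's effective length, whose version is not given in the sources used here.

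Genes were filtered with filterByExpr, scaled by TMM and tested with edgeR 4.0.16 (quasi-likelihood test, legacy form) in R 4.3.3, with Benjamini-Hochberg adjustment over 18661 genes. Calls needed an adjusted p-value under 0.05 with over 2-fold change. These are the study's thresholds, but the study applied them with DESeq2, which is an alternative here. The standard error is the log2 fold change divided by the square root of F, and intervals cover 95%. Alternatives used DESeq2 1.42.0, limma 3.58.1 on log2(FPKM + 1) and log2(FPKM + 0.1), other scalings and filters, expected counts rounded to whole numbers, and left-out libraries. The scripts were tested on simulated data, with libraries drawn independently and so without the correlation of same-numbered libraries. Positions and exons are from GENCODE release M21 (GRCm38), where the identifiers of all member rows have the same version.

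The members, lists and tests were chosen with earlier results of these data known. Named are all members, Dld, Lias, Shmt1, Shmt2, Tha1, the called genes and the 3 largest changes of each companion list, and the 3 nearest profiles of each member. A gene of a companion list that this rule names is not reported here. Summing overlapping rows, DESeq2 on expected counts and DESeq2 with a replicate term were chosen after seeing the data.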

Additional observations from a re-analysis of the deposited data

How the results depend on the processing

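No member was called under any setting. The shorter Gcat gene changed sign with limma-trend on FPKM, to 0.074 at each pseudocount and filter. There Tha1 went to 0.099 and Glrx5 to 0.0098, or to 0.15 and 0.0050 with a pseudocount of 0.1. Dlat, near 0, was −0.031 without the filter on low counts, −0.0065 with DESeq2, −0.021 with the RSEM expected counts (also with Gcat summed), −0.027 with DESeq2 on those counts and −0.0084 with DESeq2 and a replicate block. Leaving out 1 library gave ranges of −0.72 to 0.0088 for Gm17232, −1.04 to 0.13 for Glrx5 and −0.084 to 0.075 for Dlat.

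The number of genes called, 168 with edgeR, was 807 without the filter, 358 with DESeq2, 286 with DESeq2 on the RSEM expected counts, 44 with edgeR on them (44 with the Gcat rows summed), and 0 with limma-trend on FPKM under each pseudocount and filter, where 1791 genes were higher and 1123 lower at an unadjusted p-value under 0.05 with a pseudocount of 1. Leaving out 1 library gave 84 to 869. Higher calls made up 61.3%, and 73.0% when scaled by library totals alone.

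The replicate numbers were shared by the groups, but no label says that they mark a shared culture or day. Same-numbered libraries deviated together, with a correlation over genes of 0.56. With a replicate block, edgeR called 1156 genes and DESeq2 437, and the changes of the members stayed under 2-fold. At an adjusted p-value under 0.05 alone, edgeR with the block had 4105 genes higher and 4192 lower, of 18661 tested. DESeq2 with the block had 1202 higher and 2057 lower, of 32923. An adjusted p-value under 0.05 was thus common with the block. The members' adjusted p-values were 1.19e-05 for Gldc, 0.00103 for Tdh, 0.000459 for the shorter Gcat gene, 0.00321 for Amt and 0.190 for Gcsh (edgeR). DESeq2 with the block gave 0.000596, 0.0103, 0.0346, 0.0652 and 0.496 for these genes, so that Amt passed 0.05 with edgeR alone. The cause of these shifts was not tested. Without the block, the differences of Tdh and Amt could not be told from the spread between libraries. Within each number both genes were lower in lactate, by log2 values of −0.20 and −0.34 for Tdh and −0.22 and −0.25 for Amt.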
